A study of Mus musculus with 6 samples.

Results

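Circadian clock genes were examined in the spinal cord of mice with spinal muscular atrophy (SMA) and of their controls. They were chosen by symbol, as every row of the expression files named Arntl, Clock, Per1, Per2, Per3, Cry1, Nr1d1, Nr1d2, Dbp or Ciart. This gave 10 of the 25576 genes with a value above 0 in at least 1 library, and all 10 were present in all 6 libraries. Bulk RNA sequencing (bulk-seq) covered 3 whole spinal cord libraries labelled SMA and 3 labelled control, all from FVB mice at postnatal day 4 (P4). SMA mice of this severe type I (Taiwanese) model had the genotype mSmn-/-, hSMN22tg/0, that is, no intact mouse Smn allele and a human SMN2 transgene. Control mice were mSmn+/-, hSMN22tg/0, so they too carried the human transgene and were heterozygous for the knockout, and no library came from a mouse with both Smn alleles intact. The knockout is in the germline and so affects all cell types. The study's methods describe triplicates for bulk-seq with an n of 1 per group. This leaves unclear whether the libraries of a group came from separate animals, and an n of 3 below counts libraries. P-values therefore measure only the spread between these libraries, which may be technical. The hour of dissection was not given in the sources used here.

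The circadian clock is a feedback loop of transcription that runs in most tissues of adult mammals. CLOCK and BMAL1, the product of Arntl, bind as a pair to E-box sequences and switch on the Per and Cry genes, whose proteins return to the nucleus and hold that pair in check. The nuclear receptors REV-ERBα and REV-ERBβ (Nr1d1 and Nr1d2) repress Arntl through RRE sequences, DBP activates genes that carry D-boxes, and in adult tissues many of these transcripts rise and fall with the hour of the day.

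The sequences by which these factors recognise their targets were looked for in the promoters of the clock genes, because the loop is wired through them. RefSeq promoter windows (build GRCm38.p6, from 250 bases before a start site, 300 bases in all) were matched by symbol for 9 of the 10 genes, with 13 windows between them, and Per2 had no entry in the table. The letters searched, on both strands, were CACGTG for the E-box, TTATGTAA or TTACGTAA for the D-box, and TAGGTCA or TGGGTCA for the RRE. Over all 32851 promoter windows of this length, 7.15% held the E-box, 1.06% the D-box and 6.45% the RRE. Capitals mark the motif in the sequences below, which run 5′ to 3′ on the strand of the gene.

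The promoter window of Ciart held the E-box at 3 places, starting at positions -116, -58 and -44 from the start site, within a stretch at chr3:95882261-95882350 (minus strand) that overlapped no GENCODE exon. Per3 held the D-box at positions -205 and -158, in a stretch at chr4:151044810-151044876 (minus strand), also outside exons. Cry1 had an E-box at position -60, outside exons (chr10:85185097-85185126, minus strand). Per1 had an E-box at position -166 (chr11:69098771-69098800, plus strand) from the first of its 2 start sites in the table, between exons of the gene. Arntl held the RRE at position 30 after its second start site, within an Arntl exon (chr7:113207530-113207559, plus strand).
Ciart: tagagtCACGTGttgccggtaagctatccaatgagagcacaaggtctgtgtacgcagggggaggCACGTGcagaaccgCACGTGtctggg
Per3: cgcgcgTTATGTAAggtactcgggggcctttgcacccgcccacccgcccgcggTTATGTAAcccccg
Cry1: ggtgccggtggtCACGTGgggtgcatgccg
Per1: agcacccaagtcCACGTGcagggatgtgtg
Arntl: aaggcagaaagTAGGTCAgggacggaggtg
Clock, Dbp, Nr1d1 and Nr1d2 had none of these letters in their windows. A match is a description of the sequence and not a binding site, and the absence of a match holds only for these letters in these windows.

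Expression was given as FPKM, fragments scaled to the length of a gene's exons and to the mapped fragments of the library. FPKM holds no counts, so depth in reads is unknown. The libraries listed between 21197 and 22296 genes above 0, and their depth relative to SMA replicate 1, estimated from low values, ranged from 1 to 1.16. Smn1, the targeted gene, overlapped between the groups: it was at 10.4, 8.64 and 11.9 FPKM in control replicates 1, 2 and 3, and at 8.48, 9.30 and 11.1 FPKM in SMA replicates 1, 2 and 3. The labels therefore had no check in this gene, and groups are named below as the libraries are labelled.

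Control replicate 2 stood apart from the other 5 libraries. Its Pearson correlation with them across genes was 0.836 to 0.849, while every other pair of libraries reached at least 0.983. All 18 genes of a hepatocyte list were highest in this library, where they made up 7.26% of all FPKM, against 0.0134% to 0.0292% in the other libraries. The most abundant of them, albumin (Alb), was at 15895 FPKM in control replicate 2 and between 24.6 and 56.2 FPKM elsewhere. Erythroid genes, led by the globin Hbb-bs, made up 4.55% of FPKM there and 0.304% to 0.516% elsewhere. Neuronal genes, led by Stmn2, made up 0.204% there against 0.399% to 0.428% in the other libraries. Spinal cord identity was visible in all 6 libraries, with Hoxb8 at 59.0 to 115.8 FPKM and the cholinergic enzyme gene Chat at 1.53 to 3.06 FPKM, and the motor neuron factor Mnx1 was low at 0.272 to 0.613 FPKM. Every SMA against control value rests partly on control replicate 2, so each clock gene's comparison is given with and without it. In such bulk samples, fewer cells of a type and less RNA per cell cannot be told apart.

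The clock genes were expressed at low to moderate levels, from a mean over the 6 libraries of 1.67 FPKM for Ciart to 18.5 FPKM for Clock. The order of mean levels was Clock, Nr1d2, Cry1, Nr1d1, Per3, Dbp, Per1, Arntl, Per2 and Ciart. Of the neighbours in this order, Clock lay above Nr1d2, Nr1d2 above Cry1, and Arntl above Per2 with no overlap of their ranges over the 6 libraries. The other neighbours overlapped, and Cry1, Nr1d1, Per3, Dbp, Per1 and Arntl had means between 4.94 and 7.83 FPKM. Genes further apart in this order could still differ in every library, as Cry1 and Per3 did from Arntl. Dbp and Per1 were close, with means of 6.12 and 6.05 FPKM and Dbp the higher of the pair in 3 of 6 libraries. Summed over the 10 genes, the level was 73.9, 71.4 and 81.3 FPKM in the control replicates and 74.3, 80.5 and 75.7 FPKM in the SMA replicates, with overlap between the groups.

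**Figure D1:**
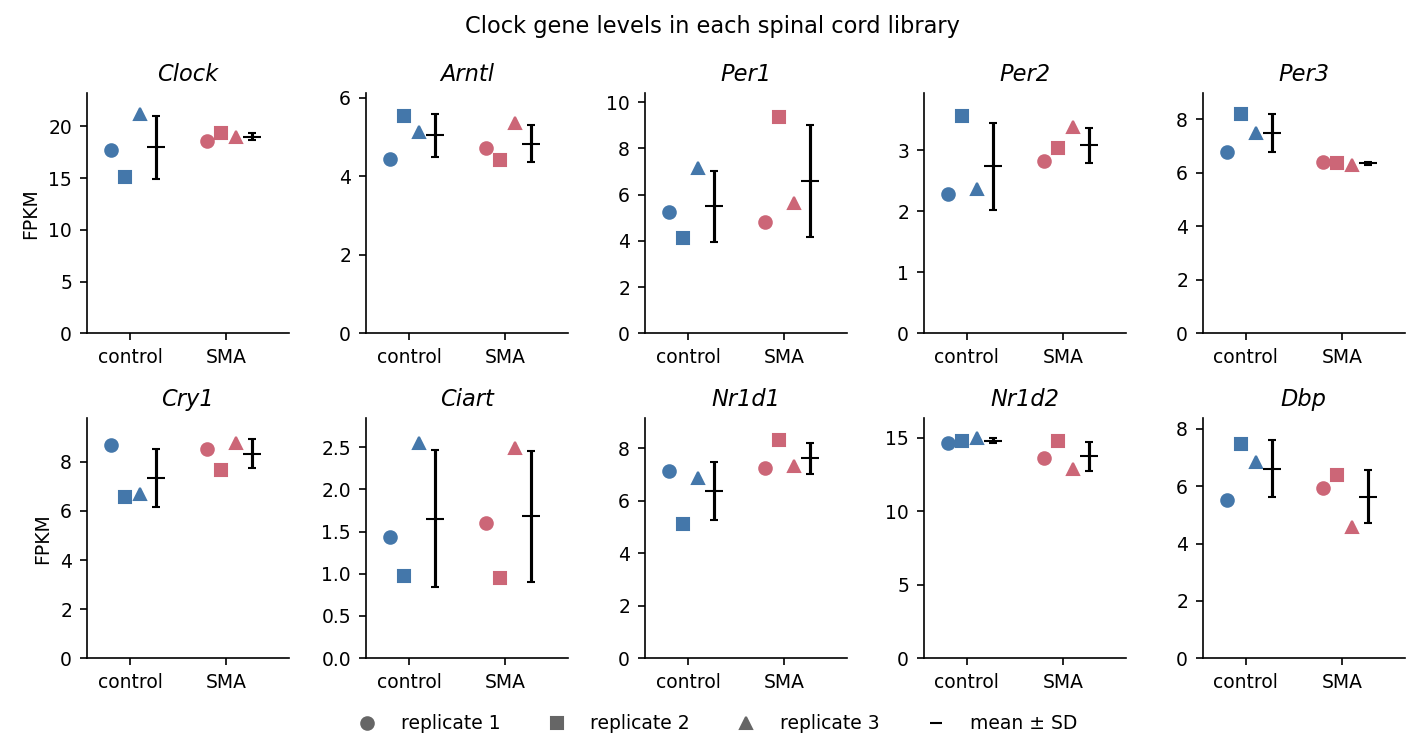
Level of each of the 10 clock genes in FPKM (vertical axes, from 0) in the 3 control (blue) and 3 SMA (red) libraries, with circles, squares and triangles for replicates 1, 2 and 3 and a black bar for the mean ± SD of each group. Per3 was lower in all SMA libraries (6.29 to 6.40 FPKM) than in all control libraries (6.79 to 8.20 FPKM), Nr1d1 was higher (7.23 to 8.31 against 5.10 to 7.14 FPKM), and the other genes overlapped.

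None of the 10 clock genes was called in the comparison of SMA with control. Linear models were fitted with limma, which shares information on variance between genes, to the 17088 genes whose mean reached 0.5 FPKM. In this fit 0 clock genes passed an adjusted p of 0.05 in limma, and 0 of all genes tested did (0%). At an unadjusted p under 0.05, limma called 0 of the 10 clock genes and 990 of all genes (5.79%). The smallest adjusted p among the clock genes was 0.683 in limma. Log2 fold changes, on the scale of log2(FPKM + 1), which understates differences of low genes, ran from -0.21 for Per3 to 0.24 for Nr1d1. Their median was 0.05, against 0.04 over all genes tested, and 4 of 10 were negative, against 42.0% of all genes. The median size regardless of sign was 0.16 for the clock genes and 0.16 for all genes.

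A missed threshold does not show equal levels, so the intervals are given. As ratios of FPKM + 1, the 95% intervals of all 10 clock genes lay within a 2-fold difference in either direction, as did those of 87.6% of all genes tested. Turned to ratios of FPKM at each gene's control mean, 9 of 10 intervals lay within a 2-fold difference and 5 of 10 within a 1.5-fold difference. The widest were those of Ciart, from 0.380 to 2.06 times the control level, and of Per1, from 0.700 to 1.93 times. Without control replicate 2, 9 of 10 intervals of the FPKM ratio lay within a 2-fold difference and 7 of 10 within a 1.5-fold difference.

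**Figure D2:**
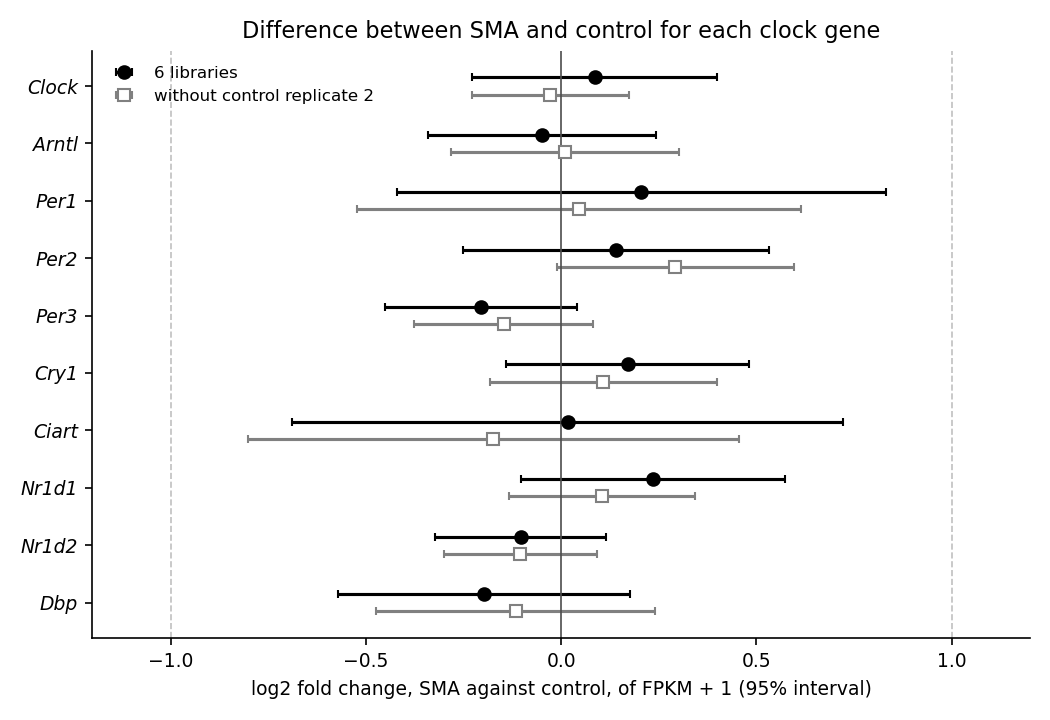
Log2 fold change of SMA against control on the log2(FPKM + 1) scale (horizontal axis) with its 95% interval from limma, for all 6 libraries (black circles) and without control replicate 2 (grey squares), and dashed lines at a 2-fold difference of FPKM + 1. Every interval crossed 0 and lay inside the dashed lines, and the widest were those of Ciart and Per1.

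Positions of the clock genes are from GENCODE M21 on GRCm38. The activators showed no separation of the groups. Clock (chr5:76209868-76304792, minus strand), which encodes the partner of BMAL1 in the activating pair, was the most highly expressed of the 10 genes. It was at 17.7, 15.1 and 21.2 FPKM in control replicates 1, 2 and 3 and at 18.6, 19.3 and 19.0 FPKM in the SMA replicates. The SMA libraries were close together (19.0 ± 0.344 FPKM, SD, n = 3) and lay inside the control range, whose lowest value was control replicate 2. Clock had a log2 fold change of 0.09 (SE 0.131, limma adjusted p = 0.797), and of -0.03 without control replicate 2.

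Arntl (chr7:113207465-113314126, plus strand), the gene of BMAL1, was at 4.44, 5.54 and 5.14 FPKM in the control replicates. In the SMA replicates it was at 4.73, 4.42 and 5.35 FPKM. Levels interleaved, with the highest value in control replicate 2 and the lowest in SMA replicate 2, and the highest was 1.25 times the lowest. For Arntl the log2 fold change was -0.05 (SE 0.122, limma adjusted p = 0.880), and 0.01 without control replicate 2.

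Among the repressors, Per3 lay lower in every SMA library and the others overlapped. Per3 (chr4:151003652-151044665, minus strand), a period gene that is dispensable for the core rhythm in mice, was at 6.79, 8.20 and 7.50 FPKM in control replicates 1, 2 and 3. In SMA replicates 1, 2 and 3 it was at 6.40, 6.35 and 6.29 FPKM. All 3 SMA libraries lay below all 3 control libraries, by 0.384 FPKM between the nearest pair, and they differed from each other by less than any pair of control libraries. Means were 7.50 ± 0.708 FPKM in control and 6.35 ± 0.0573 FPKM in SMA (SD, n = 3 each). SMA differed from control by a log2 fold change of -0.21 (SE 0.103, interval -0.45 to 0.04), with a limma p of 0.0877 and an adjusted p of 0.683. The exact two-sided permutation p was 0.1, the smallest that 3 libraries against 3 can give. Groups failed to overlap for 2 of the 10 clock genes, Per3 and Nr1d1, against 17% of all genes tested, and SMA lay below control for 1 of 10, against 6.67% of all genes. Such a share is near the background and is no result about the clock genes.

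The highest Per3 value was that of control replicate 2. Without that library the groups still did not overlap and the log2 fold change was -0.15 (limma adjusted p = 0.639), in a comparison in which 28.1% of all genes tested had groups apart and 13.9% had SMA below. Without control replicate 1 the limma p of Per3 was 0.0437, with an adjusted p of 0.465 and a log2 fold change of -0.27. Per3 lies wholly within Camta1, a calmodulin-binding transcription activator gene on the same strand, over 41014 bases, and the files give both a shared span. Reads from unspliced Camta1 RNA cannot be told apart from reads of Per3 there by strand. Camta1 was at 104, 63.7 and 107 FPKM in the control replicates and at 100.2, 107 and 110 FPKM in the SMA replicates. It was lowest in control replicate 2, the library in which Per3 was highest, and its groups overlapped.

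Per1 (chr11:69095217-69109960, plus strand), whose promoter window held an E-box, and Per2 (chr1:91415982-91459324, minus strand) are the period genes that together sustain the core rhythm. Per1 was at 5.23, 4.12 and 7.16 FPKM in the control replicates and at 4.82, 9.34 and 5.63 FPKM in the SMA replicates. Its groups overlapped, and 1 library, SMA replicate 2, stood well above the rest. The log2 fold change of Per1 was 0.21 (SE 0.262, limma adjusted p = 0.761), and 0.05 without control replicate 2. Without SMA replicate 2 it was -0.04, so that its direction rested on that library.

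Per2 was at 2.29, 3.56 and 2.36 FPKM in the control replicates. In the SMA replicates Per2 was at 2.83, 3.04 and 3.38 FPKM. Its highest value was in control replicate 2 and its lowest values were in the other two control libraries, so the groups overlapped. For Per2 the log2 fold change was 0.14 (SE 0.164, limma adjusted p = 0.742). Without control replicate 2 all SMA libraries lay above the remaining control libraries, with a log2 fold change of 0.29, an interval of -0.01 to 0.60 and a limma adjusted p of 0.492, which was the smallest of the 10 clock genes in that comparison.

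Cry1 (chr10:85131700-85185064, minus strand), a cryptochrome that represses the activating pair, was at 8.69, 6.59 and 6.70 FPKM in the control replicates. It was at 8.54, 7.66 and 8.78 FPKM in the SMA replicates. Control replicates 2 and 3 were low while control replicate 1 lay among the SMA libraries. The log2 fold change of Cry1 was 0.17 (SE 0.130, limma adjusted p = 0.683), and 0.11 without control replicate 2. Without control replicate 1 it was 0.28, with a limma p of 0.0435 and an adjusted p of 0.465.

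Ciart (chr3:95878503-95882251, minus strand), also known as Chrono, is a repressor that binds the activating pair at E-boxes and whose own promoter window held the E-box 3 times, and it had the lowest level and the largest ratio of highest to lowest library. It was at 1.44, 0.978 and 2.55 FPKM in the control replicates and at 1.60, 0.951 and 2.49 FPKM in the SMA replicates. Both groups spanned nearly the same range, with a low and a high library in each, and the highest library was 2.68 times the lowest. Ciart had a log2 fold change of 0.02 (SE 0.295, limma adjusted p = 0.986), and -0.17 without control replicate 2. Ciart lies wholly within the antisense gene C920021L13Rik, over 3749 bases, which was at 0.418 to 0.895 FPKM with overlapping groups.

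Of the REV-ERB receptors, Nr1d1 was higher in every SMA library and Nr1d2 overlapped. Nr1d1 (chr11:98767932-98775333, minus strand) was at 7.14, 5.10 and 6.86 FPKM in control replicates 1, 2 and 3. In the SMA replicates it was at 7.23, 8.31 and 7.31 FPKM. The groups did not overlap, but control replicate 1 and SMA replicate 1 were only 0.0967 FPKM apart, and the lowest library was control replicate 2. Means were 6.37 ± 1.11 FPKM in control and 7.62 ± 0.600 FPKM in SMA (SD, n = 3 each). SMA differed from control by a log2 fold change of 0.24 (SE 0.141, interval -0.10 to 0.57), with a limma p of 0.142, an adjusted p of 0.683 and an exact permutation p of 0.1. SMA lay above control without overlap for 10.3% of all genes tested. With that library left out, the value for Nr1d1 was 0.10 (interval -0.13 to 0.34, limma adjusted p = 0.753).

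Nr1d1 overlaps Thra, the gene of thyroid hormone receptor alpha, on the opposite strand over 1075 bases. The libraries were made strand-specific, but whether strand was used in computing FPKM was not given in the sources used here, so reads of the pair may not have been told apart. Thra was far more abundant, at 173, 108 and 160 FPKM in the control replicates and at 176, 181 and 173 FPKM in the SMA replicates. It too was lowest in control replicate 2, highest in SMA replicate 2 and higher in all SMA than in all control libraries. Nr1d1 amounted to 4.13%, 4.73% and 4.30% of the FPKM of Thra in the control replicates and to 4.12%, 4.60% and 4.23% in the SMA replicates. This ratio overlapped between the groups and varied less than Nr1d1 itself. The part of Thra in the Nr1d1 values was not tested.

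Nr1d2 (chr14:18204054-18239127, minus strand), the other REV-ERB gene, was the steadiest of the 10 by the ratio of highest to lowest library. It was at 14.6, 14.8 and 15.0 FPKM in the control replicates and at 13.6, 14.8 and 12.8 FPKM in the SMA replicates. SMA replicates 1 and 3 lay below every control library while SMA replicate 2 lay inside the control range, and the highest library was 1.17 times the lowest. Nr1d2 had a log2 fold change of -0.10 (SE 0.0917, interval -0.32 to 0.12, limma adjusted p = 0.688), and it was -0.10 without control replicate 2 too.

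Dbp (chr7:45705088-45710203, plus strand), the D-box activator and a direct output of the activating pair, was at 5.51, 7.46 and 6.84 FPKM in the control replicates. In the SMA replicates Dbp was at 5.94, 6.37 and 4.59 FPKM. The highest value was in control replicate 2 and the lowest in SMA replicate 3, with the groups interleaved between them. For Dbp the log2 fold change was -0.20 (SE 0.156, interval -0.57 to 0.18, limma adjusted p = 0.683), and -0.12 without control replicate 2. Dbp overlaps Sphk2 on the opposite strand over 737 bases. Sphk2, a sphingosine kinase gene, was at 4.24, 6.51 and 5.63 FPKM in the control replicates and at 5.31, 5.11 and 4.63 FPKM in the SMA replicates, and it shared with Dbp the lowest control value in replicate 1 and the highest in replicate 2.

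In adult tissues Dbp and Arntl peak at opposite times of day, and their difference within a library is hardly moved by scaling of that library. On the log2(FPKM + 1) scale, Dbp minus Arntl was 0.26, 0.37 and 0.35 in the control replicates and 0.28, 0.44 and -0.19 in the SMA replicates. In 5 of 6 libraries Dbp was the higher, and SMA replicate 3 was the exception, with the lowest Dbp and nearly the highest Arntl. Means were 0.33 ± 0.06 in control and 0.18 ± 0.33 in SMA (SD, n = 3 each). The difference between the groups, -0.15, was smaller than the spread in SMA and turned to 0.03 without SMA replicate 3.

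The genes differed in how much they varied over the libraries. From the lowest to the highest library, 8 of the 10 varied less than 2-fold, and Per1 (2.27-fold) and Ciart (2.68-fold) varied more. Because control replicate 2 widens the spread of most genes, each gene's range on the log2(FPKM + 1) scale was also ranked among the 17088 genes over the other 5 libraries. Ciart (range 0.86) stood at percentile 94.4 and Per1 (range 0.83) at percentile 93.4, followed by Dbp (0.49) at percentile 73.9, while the median of all genes was 0.33. Arntl, Clock, Per3, Nr1d1 and Nr1d2 had ranges of 0.21 to 0.24 and percentiles of 24.3 to 32.0. Such ranges depend on level, so each was also ranked among genes of similar mean FPKM. These percentiles were 89.3 for Ciart, 94.6 for Per1, 74.3 for Dbp and 47.1 for Clock. They were 18.8 for Arntl, 21.5 for Per3, 27.1 for Nr1d1 and 32.4 for Nr1d2. Between Ciart and Per1, SMA replicate 2 differed most plainly, with Per1 at its highest and Ciart at its lowest. In control replicate 2 both were low, and in control replicate 3 both were high.

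Against the mean of the other 5 libraries, control replicate 2 had lower levels of 5 clock genes and higher levels of 5. Ciart was at 0.542 times that mean, Per1 at 0.640 times, Nr1d1 at 0.691 times, Clock at 0.787 times and Cry1 at 0.816 times. Nr1d2, Arntl, Per3, Dbp and Per2 were at 1.04 to 1.28 times. For comparison, the median was 0.886 over all genes tested, 0.536 for the 6 neuronal genes, 0.624 for the 6 Hox genes, 14.2 for the 8 erythroid genes and 422 for the 18 hepatocyte genes. The median was 0.791 for the 6 astrocyte genes and 0.879 for the 6 oligodendrocyte genes. In this library Ciart, Per1 and Nr1d1 lay in the range of the Hox genes (0.517 to 0.699 times). The other clock genes lay above that range, at 0.787 to 1.28 times. The part of this library's composition in the values of single clock genes was not tested.

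**Figure D3:**
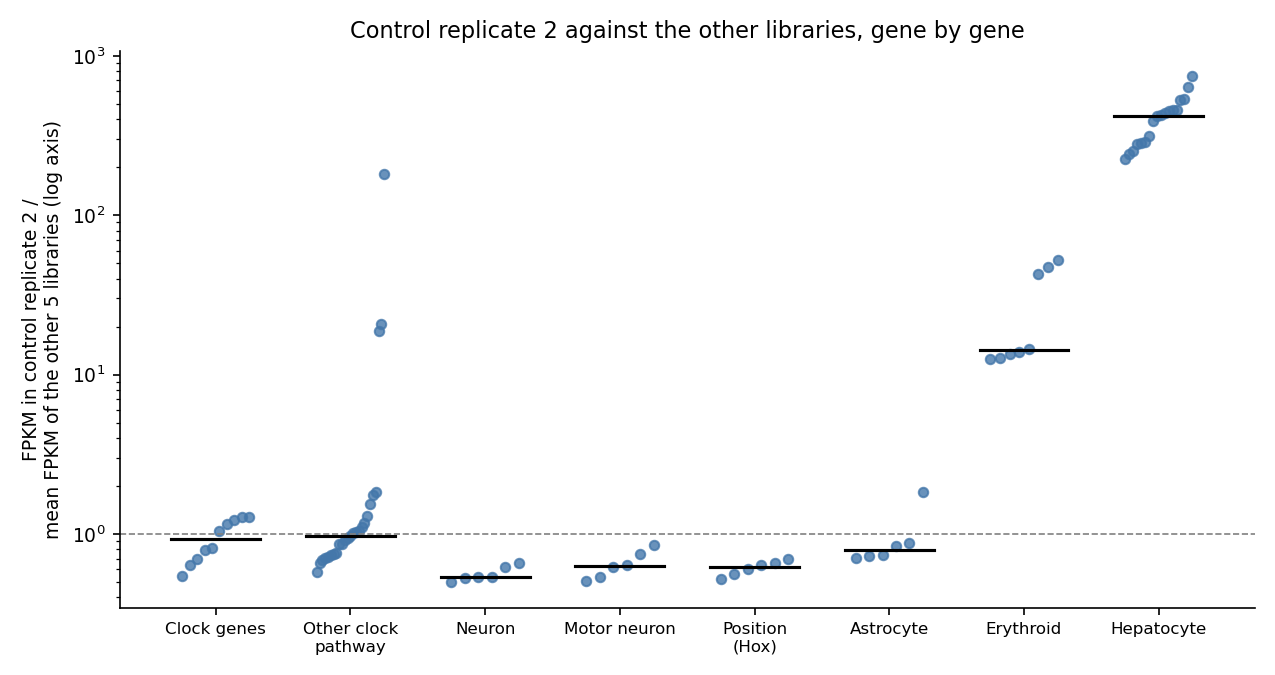
FPKM in control replicate 2 divided by the mean FPKM of the other 5 libraries (vertical log axis), 1 point per gene with a black line at the median of each list, and a dashed line at a ratio of 1. The clock genes lay between 0.542 and 1.28, the neuronal genes between 0.496 and 0.659, and the hepatocyte genes between 225 and 746.

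Other genes of the clock pathway, 25 in the files, were taken as a list of activators, repressors, ROR receptors, D-box factors, regulators of clock protein turnover and outputs, and 23 of them were tested. With limma, 0 passed an adjusted p of 0.05, and 0 were lower and 1 was higher in SMA at an unadjusted p under 0.05, against 2.39% lower and 3.4% higher of all genes tested. Their median log2 fold change was 0.03. The gene past the unadjusted threshold was Npas2, which encodes a partner of BMAL1 that can stand in for CLOCK. Npas2 was at 2.14, 2.15 and 1.29 FPKM in the control replicates and at 3.11, 2.23 and 3.65 FPKM in the SMA replicates. All SMA libraries lay above all control libraries, SMA replicate 2 by a small margin. The log2 fold change of Npas2 was 0.48 (SE 0.201, interval 0.00 to 0.96), with a limma p of 0.0494 and an adjusted p of 0.683. It was 0.56 without control replicate 2 (limma adjusted p = 0.436). Npas2 no longer passed the unadjusted threshold without control replicate 1, control replicate 3, SMA replicate 1 or SMA replicate 3, nor with 4 of 9 other alternatives in the analysis.

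The remaining activator, Arntl2, a paralog of Arntl, was near the floor of what was tested, with 0.794 to 1.45 FPKM, overlapping groups and a log2 fold change of -0.12 that became -0.05 without control replicate 2. Of the other repressors, Cry2 was the most abundant at 19.0 to 23.8 FPKM, with a log2 fold change of 0.13 (limma adjusted p = 0.683), and 0.09 without control replicate 2. Bhlhe40 (DEC1), which competes for E-boxes, was at 10.3 FPKM in control replicate 2 and at 4.73 to 6.60 FPKM in the other libraries, and its log2 fold change of -0.36 became -0.15 without that library. Bhlhe41 (DEC2) was at 5.02 to 8.20 FPKM, with a log2 fold change of 0.08 that became -0.06 without that library.

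The ROR receptors activate Arntl through the sequences that REV-ERB proteins occupy. Rora was at 12.6 to 15.3 FPKM, with a log2 fold change of 0.03, and 0.06 without control replicate 2. Rorb was at 7.94 FPKM in control replicate 2 and at 11.5 to 12.3 FPKM in the other libraries. Its log2 fold change of 0.21 became 0.04 without that library.

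Of the other D-box factors, Tef, an activator, was the most abundant at 23.5 to 29.8 FPKM. Hlf, also an activator, was at 6.08 to 7.86 FPKM, and Nfil3, which represses at D-boxes, was at 3.87 to 5.31 FPKM. Their groups overlapped, and their log2 fold changes were -0.07 for Tef, -0.15 for Hlf and 0.07 for Nfil3. These were 0.01, -0.17 and 0.13 without control replicate 2, so that the value of Tef turned in sign.

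Among the 8 turnover genes, 2 log2 fold changes were negative with all libraries, against 42.0% of all genes. Without control replicate 2, in which all 8 genes were below the mean of the other libraries, 5 were negative, against 49.6% of all genes. Csnk1e, a kinase that marks PER proteins for degradation, was at 32.4, 24.6 and 29.0 FPKM in the control replicates and at 33.5, 34.5 and 34.8 FPKM in the SMA replicates. All SMA libraries were higher, with a log2 fold change of 0.26 (limma adjusted p = 0.683) that was 0.16 without control replicate 2. Its relative Csnk1d was at 37.7, 33.7 and 40.1 FPKM in control and at 35.2, 35.8 and 33.8 FPKM in SMA. The groups of Csnk1d overlapped, and its log2 fold change was -0.08, and -0.15 without control replicate 2 (limma adjusted p = 0.458). Log2 fold changes of the ubiquitin ligase genes Fbxl21, Btrc and Fbxw11, of the deubiquitinase gene Usp2 and of the kinase gene Gsk3b ran from -0.18 for Usp2 to 0.37 for Fbxl21. They were -0.33 for Usp2 and 0.23 for Fbxl21 without control replicate 2, and those of Btrc (0.11), Fbxw11 (0.11) and Gsk3b (0.14) turned to -0.02, -0.06 and -0.05.

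All 4 tested outputs had negative log2 fold changes, from -0.14 for Alas1 (haem synthesis) to -0.28 for Wee1 (a kinase that holds back mitosis), against 42.0% negative among all genes tested. SMA lay below control without overlap for 2 of them, against 6.67% of all genes. Wee1 was at 2.77, 3.82 and 2.68 FPKM in the control replicates and at 2.32, 2.40 and 2.28 FPKM in the SMA replicates. Nampt, the rate-limiting enzyme of NAD salvage, was at 17.3, 15.2 and 16.1 FPKM in control and at 14.8, 12.7 and 14.1 FPKM in SMA. In both genes every SMA library lay below every control library, with limma adjusted p of 0.683 for each. With control replicate 2 left out, the log2 fold change of Nampt was -0.25 (limma adjusted p = 0.408) and that of Wee1 was -0.16 (limma adjusted p = 0.683), and Alas1 was at -0.21. Por, a reductase abundant in liver, was at 43.7 FPKM in control replicate 2 and at 22.8 to 25.3 FPKM in the other libraries, and its log2 fold change of -0.23 turned to 0.07 without it. The liver genes Cyp7a1 and Cyp2a5 were under the expression minimum and highest in control replicate 2, at 1.99 and 0.709 FPKM. Without control replicate 2, limma called 2 of 22 pathway genes lower (Csnk1d and Nampt) and 1 higher (Npas2) at an unadjusted p under 0.05, against 5.2% lower and 10.5% in either direction of all genes, and 0 by adjusted p.

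**Figure D4:**
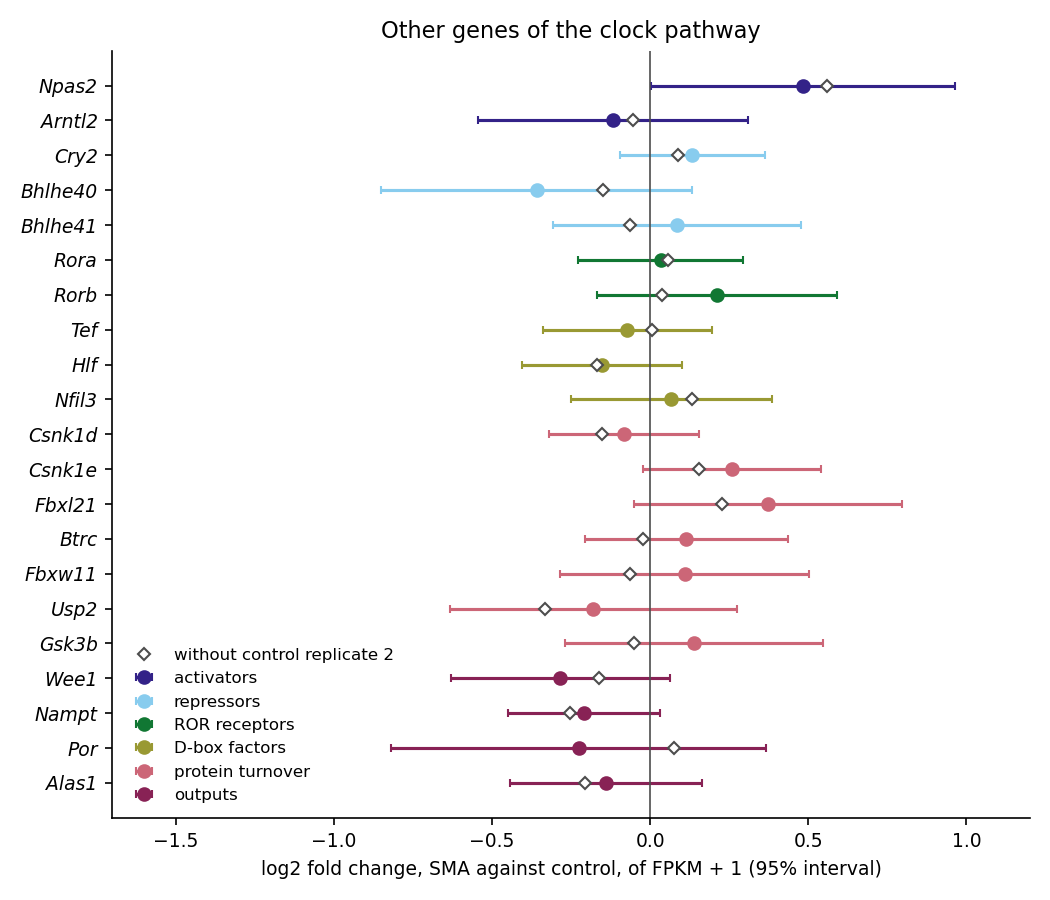
Log2 fold change of SMA against control on the log2(FPKM + 1) scale (horizontal axis) with its 95% interval from limma for 21 of the 23 other clock pathway genes tested, coloured by role, with open diamonds for the value without control replicate 2. The interval of Npas2 alone stayed above 0 (0.00 to 0.96), and that of Por was the widest.

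Without control replicate 2, more genes passed the tests across the genome, and no clock gene did. Limma then tested 16574 genes, called 1736 at an unadjusted p under 0.05 (10.5%) and 2 by adjusted p (0.0121%), the noncoding RNA genes Snora74a and Rpph1, which are named because the count was small. It called 0 of the 10 clock genes by adjusted p and 0 at an unadjusted p under 0.05. The groups were apart for 3 of the 10, Per2, Per3 and Nr1d1, against 28.1% of all genes. The median log2 fold change of the clock genes was -0.01, against 0.00 for all genes, and all 10 intervals lay within a 2-fold difference of FPKM + 1.

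Genes whose profile over the libraries was most like that of Dbp or Arntl were sought by the root mean square (RMS) difference of centred log2(FPKM + 1) values. For Dbp over 6 libraries these were Ift52, a gene of cilium transport (RMS 0.0206), AA386476 (0.0394) and Kctd12b (0.0494), where Dbp itself departed from its own mean by 0.193. Ift52 was at 7.76, 10.6 and 9.68 FPKM in the control replicates and at 8.29, 9.04 and 6.82 FPKM in the SMA replicates, the same order of libraries as Dbp. Over 5 libraries, without control replicate 2, the nearest to Dbp were Prickle4 (0.0194), Msc (0.0212) and again Ift52 (0.0223). For Arntl they were Gm44116, Gm37728 and Gm7265 over 6 libraries (0.0305 to 0.0375), and Pnck, Gm5595 and Spg11 over 5 (0.0120 to 0.0187). No other clock gene could appear here, since the search was over genes outside the 10, and with so few libraries many profiles match: 2092 of 17078 genes were nearer to Dbp than a flat profile was.

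Immediate-early genes and glucocorticoid-responsive genes, which respond quickly to cell activity and to hormone, were set beside the clock genes. Of 9 immediate-early genes tested, limma called 1 at an unadjusted p under 0.05, against 5.79% of all genes. This was Npas4, which lay higher in SMA at 1.34, 1.24 and 1.60 FPKM against 0.833, 0.723 and 0.915 FPKM in control (log2 fold change 0.39, and 0.35 without control replicate 2, limma adjusted p = 0.683 with all libraries). The most abundant, Ier2, was at 10.2 FPKM in control replicate 2 and at 3.06 to 4.67 FPKM elsewhere. Of 8 glucocorticoid-responsive genes, 0 were called with all libraries. The metallothionein genes Mt2 and Mt1 were at 1034 and 767 FPKM in control replicate 2, and with all libraries their log2 fold changes were -0.44 and -0.45. Without that library Mt2 was at 80.4 and 63.5 FPKM in control and at 115, 122 and 151 FPKM in SMA, with a log2 fold change of 0.84, and Mt1 had a log2 fold change of 0.87. With Pdk4, these were the 3 genes of 8 in this list at an unadjusted p under 0.05, against 10.5% of all genes in that comparison, and none passed the adjusted threshold, with a smallest adjusted p in this list of 0.221 in limma. The rest of the list did not pass the unadjusted threshold there. Log2 fold changes were -0.09 for Tsc22d3, 0.01 for Sgk1, 0.09 for Fkbp5, 0.10 for Zbtb16 and 0.16 for Cdkn1a. Per1, which also answers to glucocorticoids, had a log2 fold change of 0.05 in the same comparison.

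Markers of other cell types in the cord were summed in each library. The endothelial sum (4 genes, led by Cldn5) was 40.9, 40.4 and 39.1 FPKM in control and 31.5, 24.8 and 24.6 FPKM in SMA, with no overlap. Of its 4 genes, Cldn5 and Pecam1 had SMA below control without overlap, against 6.67% of all genes tested. Cdh5 and Flt1 overlapped, Flt1 with its highest value, 6.17 FPKM, in SMA replicate 1. The fibroblast sum (5 genes, led by Col1a2) was 161, 168 and 145 FPKM in control and 176, 74.8 and 33.7 FPKM in SMA, low in SMA replicates 2 and 3. Sums of astrocyte (469.8 to 589 FPKM), oligodendrocyte (640.1 to 1179), oligodendrocyte precursor (61.9 to 88.1), microglia (42.4 to 55.9) and motor neuron genes (39.3 to 88.3) overlapped between the groups. The sum of the 6 neuronal genes overlapped too, at 1523, 844 and 1406 FPKM in control and 1464, 1561 and 1562 FPKM in SMA. SMA lay above control without overlap for 3 of these 6 genes (Tubb3, Rbfox3 and Syt1), against 10.3% of all genes tested. Each of the 3 was lowest in control replicate 2. Per3 and Dbp had the most negative log2 fold changes of the clock genes with all 6 libraries. Without control replicate 2 the most negative was that of Ciart, at -0.17. All clock genes were measured in the same whole cord RNA, and the part of these cell types in their levels was not tested.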

How the data were processed

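The authors deposited FPKM, obtained per library with Cufflinks from HISAT2 alignments to mm10 (submitters' processing notes) of ribosomal RNA-depleted, strand-specific libraries. Versions and annotation release were not given in the sources used here. Of 25576 genes, 25408 (99.3%) were found by identifier in GENCODE M21. Genes not listed for a library counted as 0 FPKM in it. The study's methods name a test on read counts, but the files hold FPKM. Therefore log2(FPKM + 1) was compared, for genes whose mean reached 0.5 FPKM, with limma 3.58.1 (lmFit, eBayes with a trend) in R 4.3.3, two-sided, with Benjamini-Hochberg adjustment over all genes tested. Exact permutation tests were two-sided. The procedure was tested on simulated data with log2 fold changes of 1 and 2 in the better expressed genes and no outlying library. Differences as small as those of the clock genes, and a library like control replicate 2, were not simulated. Genes named are the 10 clock genes, the pathway lists, Smn1 and the 3 profiles nearest to Dbp and to Arntl. Up to 3 of the most abundant genes of each marker list are named too. Overlapping genes, other genes that stood apart, and the rest of the glucocorticoid-responsive list were named after their values were seen. Results of 2 genes of the pathway lists are not reported here one by one. The clock genes and lists were chosen with earlier results of these data known. Alternatives were another pseudocount, filters, scalings, variance models, library weights, the replicate number as a block and each library left out.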

Additional observations from a re-analysis of the deposited data

How the results depend on the processing

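Across the alternatives, 0 of the 10 clock genes passed an adjusted p of 0.05 in limma, and 140 log2 fold changes kept their sign while 10 reversed. The filters, the robust variance model and the replicate block cannot change a log2 fold change. Their values are among the 140 by construction and say nothing about stability of sign. For Ciart the log2 fold change was -0.014 with median ratio scaling and -0.16 with library weights, and ran from -0.19 to 0.25 with each library left out. For Clock it was -0.0055 with library weights. Leaving out each library in turn gave -0.027 to 0.20 for Clock, -0.12 to 0.010 for Arntl and -0.039 to 0.38 for Per1. The count of clock genes at an unadjusted p under 0.05 ranged from 0 to 2 with each library left out. It was 2 (Per3 and Cry1) without control replicate 1, where 573 of 17115 genes tested were lower and 1032 higher at that threshold. The count of all genes by adjusted p ranged from 0 to 2, with 2 without control replicate 2. The count of other pathway genes at an unadjusted p under 0.05, which was 1, was 0 with no filter, with a minimum mean of 1 FPKM and with the replicate block, 2 with quantile normalization and with library weights, and 0 to 3 with each library left out. That gene, Npas2, was also not among those counted with median ratio scaling (Nampt) or without control replicate 1 (Csnk1e and Fbxl21), and none was counted without control replicate 3, SMA replicate 1 or SMA replicate 3. The cause of these shifts was not tested. Same-numbered libraries of the groups did not deviate together (r = -0.037, 0.016 and 0.077 across genes), so they were not treated as pairs; with the replicate block, genes at an unadjusted p under 0.05 numbered 303 lower and 356 higher, against 409 and 581 without it. The split of such genes was 387 lower and 336 higher after rescaling to the same total. It was 337 and 639 with quantile normalization and 567 and 529 with median ratio scaling. No filter gave 491 and 882 of 25576 genes, and library weights gave 619 and 711. With a minimum mean of 1 FPKM it was 357 and 521 of 15417. Leaving out control replicate 1, 2 or 3 gave 573 and 1032, 862 and 874, or 712 and 1040. Leaving out SMA replicate 1, 2 or 3 gave 306 and 238, 142 and 255, or 125 and 214. These leave-out comparisons tested 16574 to 17131 genes. With 3 libraries a group and no counts, small differences in Ciart and Per1 are the least well bounded.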
